A study of Mus musculus with 8 samples.

Results

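Collagen chain genes encode the α-chains that wind in threes into collagen molecules. They were taken as all protein-coding genes of the count table whose symbol reads Col, a number, the letter a and a number, which gave 44 of the 55487 genes listed. Their transcripts were measured in aged mouse muscle stem cells (MuSCs) grown with or without a combination of nicotinamide (NAM, a form of vitamin B3) and pyridoxine (PN, a form of vitamin B6). The cells came from muscles of old wild-type C57BL/6JRj male mice, described as 23 to 24 months old, and were sorted as lineage-negative (CD31-, CD45-, CD11b-, Sca1-) CD34+ ITGA7+ cells. After sorting, cells of 4 pools, each of 2 mice, were kept for 3 days in growth medium either with 1% DMSO as the vehicle (4 libraries) or with the NAM/PN combination at 1 mM (4 libraries). Each pool number labels 1 library per condition and was read as the same mice, so that both conditions shared mice and genotype. The labels do not say that each pool was split. Whether the NAM/PN cultures also held DMSO is not given in the sources used here. A limit of this model is that the cells were outside muscle, had left their niche and were pooled from several animals, so a library reads an average over mice.

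In skeletal muscle, collagens I and III form the fibrils of the connective tissue around fibers, collagen V joins these fibrils and limits their diameter, and collagens IV and XVIII lie in the basement membrane that covers the MuSC. Collagen VI forms beaded filaments next to that membrane. MuSCs make part of the matrix of their own niche, and collagen V is known as a ligand through which quiescent MuSCs signal to themselves via the calcitonin receptor. Procollagen chains are hydroxylated, folded and exported before their ends are trimmed and they are crosslinked, and matrix metalloproteinases later break them down.

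Library totals were between 6472484 and 10163101 counts. Levels are given as CPM, the counts of a gene per 1000000 counts of its library after TMM scaling (edgeR's trimmed-mean library scaling). Because the libraries read the 3′ end of transcripts, with about 1 read per transcript whatever its length, CPM was not divided by length. The floor, set at 3 counts per library, lay at 0.280 to 0.457 CPM and covers counting error only. Markers of myogenic progenitors were present in all libraries, with summed levels of 2117 to 2427 CPM with vehicle and 1699 to 2078 CPM with NAM/PN. Of these 8 markers 7 were tested, and all 7 were fitted lower, against 50.2% of all tested genes. In the edgeR test of NAM/PN against vehicle 0 passed. An unadjusted p under 0.05 was found for 1, Fgfr4, against 9.28% of all tested genes. Fgfr4 was at 64.1 to 82.1 CPM with vehicle and at 13.3 to 63.8 CPM with NAM/PN. Markers of differentiating muscle cells summed to 1137 to 2276 CPM with vehicle and to 177 to 490 CPM with NAM/PN, and all 8 were fitted lower, 6 of them past the edgeR test, which called 0.995% of all tested genes lower. Of the 10 markers of fibro-adipogenic progenitors or fibroblasts, Pdgfra, Lum, Dpt, Tcf21 and Mfap5 had 0 counts in every library and Dcn had 2 counts in all, while Gsn, which muscle cells also express, made up most of a summed level of 116 to 167 CPM with vehicle and 7.14 to 40.3 CPM with NAM/PN. In such bulk libraries, fewer cells of a type and less RNA per cell cannot be told apart.

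Libraries of the same condition differed from one another. NAM/PN libraries 1 and 2 stood apart from the rest in Col1a1, an α-chain of collagen I, which took 46.4% and 58.6% of all collagen CPM there, against 5.04% in vehicle library 3 and at most 0.699% in the other 5 libraries. NAM/PN libraries 1 and 2 also shared reads in processed pseudogenes. Among all genes, 41 reached at least 10 CPM in both of them and stayed under 1 CPM in the other libraries except vehicle library 3, on which no limit was set. Of these 41 genes 38 were processed pseudogenes (92.7%), against 14.4% of the 19244 genes with a count. The 41 genes summed to 1141 and 1293 CPM in NAM/PN libraries 1 and 2 and to at most 4.14 CPM in the other 5 libraries, an order that the rule picking them fixed in advance. In vehicle library 3 they summed to 60.8 CPM, with 13 of the 41 at the floor of 3 counts or above and a median of 0 CPM. That library held the fewest processed pseudogenes with a count (887) and the lowest share of counts in them (1.54%). Vehicle library 3 also held the largest share of counts in the ribosomal RNA gene CT010467.1, 18.7% against 5.22% to 11.6% in the others. Whether the reads that set these libraries apart, in the pseudogenes and in Col1a1 and Col1a2, came from RNA of the mouse cells was not tested, nor was their part in the collagen results, and calls on chains and turnover genes that changed without these libraries are given with and without them.

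Of the 44 chains, 18 passed the filter on low counts and were tested, 13 of them reaching the filter's level in all 8 libraries. Each of the 18 reached it in at least 1 library of each condition, though Col6a1 did so in 4 vehicle and only 2 NAM/PN libraries. Another 12 had at least 1 count but too few to test, and 14 had no count in any library. With vehicle, Col5a2 (a chain of collagen V) was the highest at a mean of 341 ± 50.9 CPM (SD, n = 4), followed by Col3a1 (the chain of collagen III) at 155 ± 7.86 CPM and Col18a1 (the chain of collagen XVIII, whose C-terminal fragment is endostatin) at 65.9 ± 9.10 CPM. The ranges of these 3 chains over the vehicle libraries did not touch one another. Below them came Col4a1 at 44.8 ± 13.6, Col27a1 at 37.1 ± 9.93, Col5a1 at 36.9 ± 7.93, Col19a1 at 33.7 ± 13.3, Col8a1 at 22.7 ± 4.65 and Col4a2 at 22.6 ± 5.28 CPM. Neighbors in this second tier overlapped in their ranges over the vehicle libraries. Col5a2 alone held 34.1% to 47.1% of collagen CPM in the vehicle libraries. Col1a1 and Col1a2, the chains of collagen I and the main collagen transcripts of fibroblasts, were at 1.74 to 4.26 CPM and 4.96 to 16.9 CPM with vehicle, apart from 41.3 CPM of Col1a1 in vehicle library 3.

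**Figure D1:**
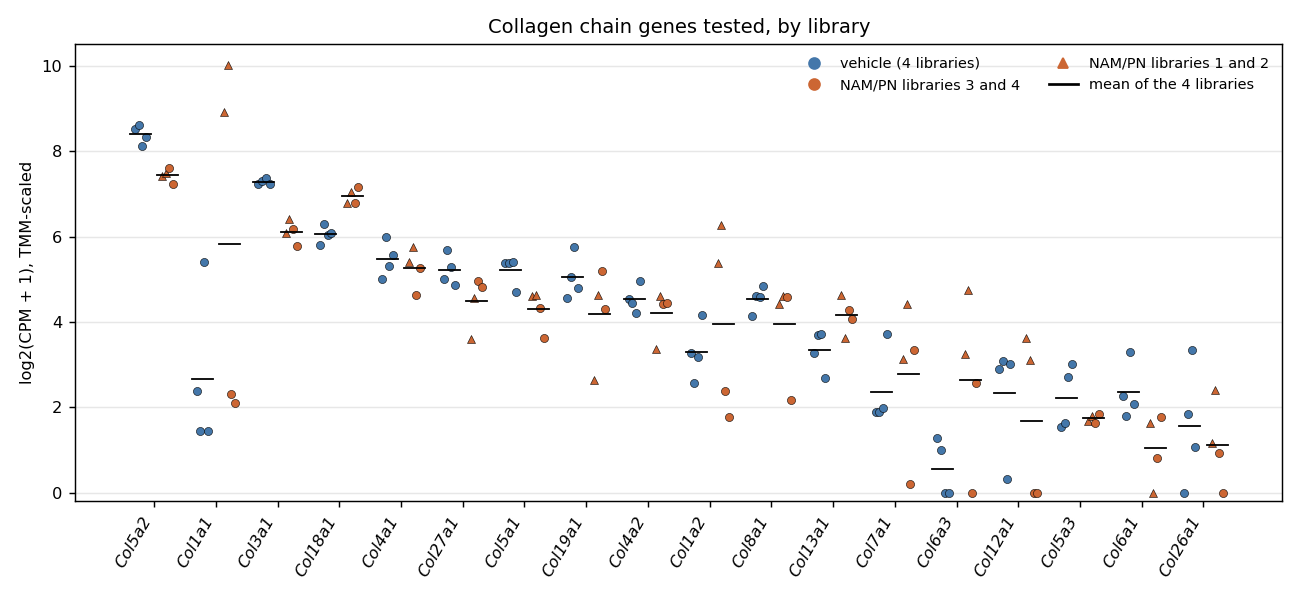
Level of each of the 18 tested collagen chains in the 8 libraries, as log2(CPM + 1) after TMM scaling, ordered by mean level. Blue points are vehicle libraries, orange points NAM/PN libraries (triangles for NAM/PN libraries 1 and 2), and bars the mean of 4 libraries. Col5a2, Col3a1 and Col18a1 separate the conditions, and Col1a1 is high only in the triangles and, less so, in 1 vehicle library.

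NAM/PN-treated MuSCs held less Col5a2 and Col3a1 transcript and more Col18a1 transcript than vehicle-treated MuSCs. These were the 3 chains past an adjusted p of 0.05, 2 of them lower and 1 higher, among the 18 tested (edgeR quasi-likelihood test, Benjamini-Hochberg adjustment over all tested genes). Over all 12060 tested genes 1.28% passed, 0.995% lower and 0.282% higher. The same 3 chains passed with the pool as a block, where 1.29% of all genes did (1.02% lower and 0.274% higher). An unadjusted p under 0.05 was found for 7 chains (38.9%), against 9.28% of all genes. The fitted change was below 0 for 12 of the 18 chains, against 50.2% of all genes, and the median log2 fold change was -0.33 over the chains and -0.0022 over all genes. The chains' median was -0.57 with the pool as a block, -0.71 without the filter on low counts and -0.67 without NAM/PN libraries 1 and 2, and the SD of the medians of the 4 pools was 0.514. Libraries of the conditions did not overlap for 5 chains (Col5a2, Col3a1, Col5a1 and Col6a1 lower with NAM/PN, Col18a1 higher), against 7.21% of all genes (4.42% lower and 2.79% higher). Within pools, Col5a2, Col3a1, Col5a1, Col6a1, Col27a1 and Col19a1 were lower with NAM/PN in 4 of 4, and Col18a1 was higher in 4 of 4, against 10.6% and 8.49% of all tested genes. The vehicle libraries of Col6a1 were enough to pass the filter on low counts, so its place in both counts is a description and not support.

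Among the fibril-forming collagens, 7 of 11 chains were tested and 2 were lower past the test, against 0.995% of all tested genes. Col5a2 pairs with Col5a1 in collagen V fibrils. Its gene (ENSMUSG00000026042) lies on the minus strand at chr1:45374321-45503282 (GRCm38). Col5a2 was at 368, 394, 279 and 321 CPM in vehicle libraries 1 to 4, and at 170.4, 178, 194 and 149 CPM in NAM/PN libraries 1 to 4. Every NAM/PN library was below every vehicle library, and the pool 3 pair lay closest together. Col5a2 was 1.97-fold lower with NAM/PN (log2 fold change -0.98 ± 0.17, SE; edgeR with Benjamini-Hochberg adjustment, adjusted p = 0.00397, and 0.00931 with the pool as a block). A two-sided exact permutation test over the 70 assignments of 4 and 4 libraries gave p = 0.0286, the smallest it can give. Here and below, this test took all libraries as exchangeable and made no use of the pools. Without NAM/PN libraries 1 and 2 the log2 fold change was -0.99 and the call was lost in edgeR (Benjamini-Hochberg adjusted p = 0.0899), as it was without pool 1 (0.0852) and without pool 2 (0.104).

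Col3a1 forms the homotrimer of collagen III, the fibrillar collagen of loose and healing tissue. The gene (ENSMUSG00000026043) lies on the plus strand at chr1:45311538-45349706, and its 3′ end faces that of Col5a2 with 24614 bases between them. Col3a1 was at 149, 156, 166 and 149 CPM in vehicle libraries 1 to 4, and at 66.6, 84.4, 72.0 and 53.7 CPM in NAM/PN libraries 1 to 4. The vehicle libraries lay within a narrow range and no NAM/PN library reached it. Col3a1 was 2.24-fold lower with NAM/PN (log2 fold change -1.17 ± 0.19, SE; edgeR with Benjamini-Hochberg adjustment, adjusted p = 0.00255, and 0.00407 with the pool as a block; exact permutation p = 0.0286). It stayed lower without NAM/PN libraries 1 and 2 (log2 fold change -1.30, edgeR with Benjamini-Hochberg adjustment, adjusted p = 0.0251) and without vehicle library 3 as well (-1.27, 0.0420). Within libraries, the ratio of Col5a2 to Col3a1 was 1.68 to 2.53 with vehicle and 2.11 to 2.78 with NAM/PN, so the ranges overlapped.

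Col5a1, the other main chain of collagen V, was at 40.5, 40.4, 41.6 and 25.0 CPM with vehicle and at 23.4, 24.0, 19.2 and 11.4 CPM with NAM/PN. The conditions did not overlap, with vehicle library 4 close to the highest NAM/PN libraries. Its log2 fold change of -0.92 ± 0.34 (SE) did not pass the threshold (edgeR with Benjamini-Hochberg adjustment, adjusted p = 0.299, unadjusted 0.0131). The ratio of Col5a2 to Col5a1 was 6.70 to 12.8 with vehicle and 7.28 to 13.1 with NAM/PN, and thus overlapped. Col27a1, a chain of a fibrillar collagen best known from cartilage, was at 31.1, 50.6, 38.4 and 28.4 CPM with vehicle and at 11.2, 22.7, 30.3 and 27.2 CPM with NAM/PN. These overlapped, since NAM/PN library 3 lay above vehicle library 4 (log2 fold change -0.70, edgeR with Benjamini-Hochberg adjustment, adjusted p = 0.574). Col5a3, a further collagen V chain, ranged from 1.89 to 7.07 CPM with vehicle and from 2.13 to 2.62 CPM with NAM/PN.

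The chains of collagen I were high in NAM/PN libraries 1 and 2 and not in NAM/PN libraries 3 and 4. Col1a1 (ENSMUSG00000001506, chr11:94936224-94953042) was at 4.26, 1.74, 41.3 and 1.74 CPM in vehicle libraries 1 to 4 and at 486, 1032, 3.96 and 3.27 CPM in NAM/PN libraries 1 to 4. NAM/PN libraries 1 and 2 were far above all others, while NAM/PN libraries 3 and 4 lay within the vehicle range. Over all libraries the log2 fold change was 4.97 ± 1.30 (SE; edgeR with Benjamini-Hochberg adjustment, adjusted p = 0.0709, and 0.448 with the pool as a block; exact permutation p = 0.229). Without NAM/PN libraries 1 and 2 the sign turned, to -1.75 (edgeR with Benjamini-Hochberg adjustment, adjusted p = 0.699), and without vehicle library 3 as well it was 0.48 (0.982). In fits that left out vehicle library 3, NAM/PN library 3, NAM/PN library 4 or pool 3, Col1a1 passed the edgeR threshold, with log2 fold changes of 7.19, 5.38, 5.38 and 7.61 and Benjamini-Hochberg adjusted p-values of 0.0194, 0.0278, 0.0161 and 0.00805. Over all 12 fits that left out 1 library or pool the log2 fold change ran from 3.39 to 7.61, and it was 3.75 without NAM/PN library 2.

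Col1a2 (ENSMUSG00000029661, chr6:4504814-4541544), the partner chain, was at 8.76, 4.96, 8.03 and 16.9 CPM with vehicle and at 41.0, 76.4, 4.26 and 2.43 CPM with NAM/PN. The same 2 NAM/PN libraries were high, and the other 2 were below all vehicle libraries. The log2 fold change was 1.68 ± 0.74 (SE) over all libraries and -1.53 without NAM/PN libraries 1 and 2 (edgeR with Benjamini-Hochberg adjustment, adjusted p = 0.477 and 0.662). Collagen I holds more Col1a1 than Col1a2 chains, and the measured ratio of Col1a1 to Col1a2 transcripts was 11.9 and 13.5 in NAM/PN libraries 1 and 2, 5.14 in vehicle library 3 and between 0.103 and 1.35 in the other 5. Vehicle library 3 thus carried a raised Col1a1 level beside an ordinary Col1a2 level.

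**Figure D2:**
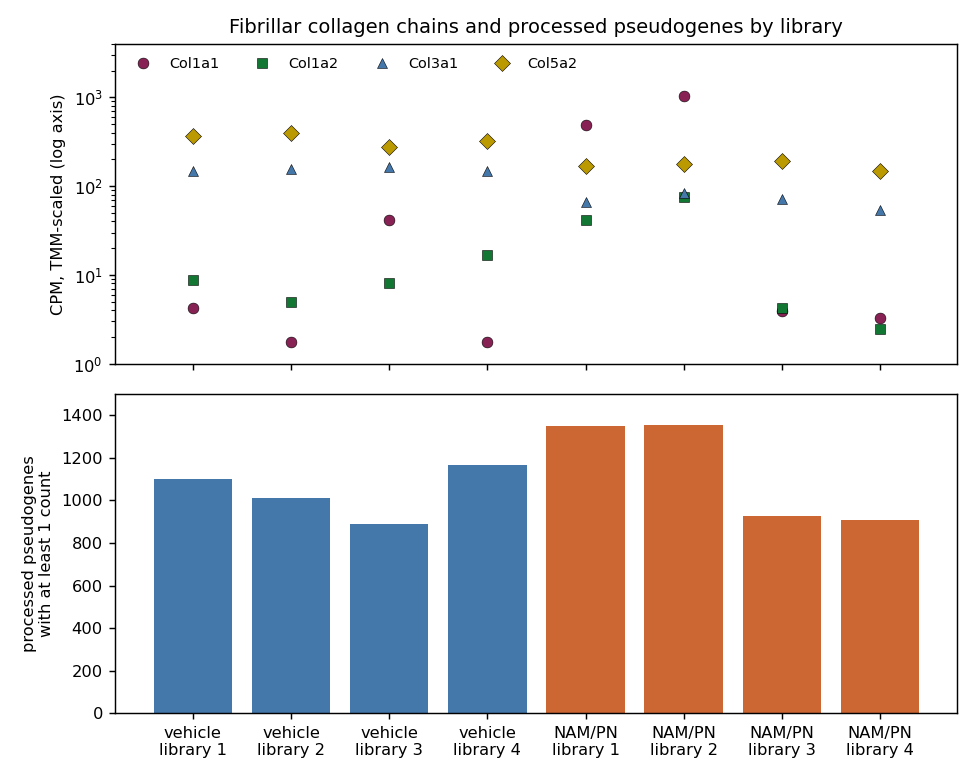
Upper panel, CPM (log axis, TMM-scaled) of Col1a1, Col1a2, Col3a1 and Col5a2 in each library. Lower panel, processed pseudogenes with at least 1 count in each library (blue, vehicle; orange, NAM/PN). Col1a1 and Col1a2 peak in NAM/PN libraries 1 and 2, which also hold the most processed pseudogenes (1348 and 1355, against 887 to 1164 elsewhere), while Col3a1 and Col5a2 are lower in all 4 NAM/PN libraries.

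Summed over all chains, collagen was at 782, 899, 818 and 784 CPM with vehicle and at 1049, 1763, 566 and 508 CPM with NAM/PN. The sum was highest in NAM/PN libraries 1 and 2 and lowest in NAM/PN libraries 3 and 4. Without Col1a1 it was 809 ± 59.4 CPM in vehicle libraries, against 590 ± 97.4 CPM in NAM/PN libraries (SD, n = 4 each), and NAM/PN library 2, at 731 CPM, lay closest to the vehicle libraries, which began at 776 CPM. Without Col1a1 and Col1a2 the sums were 799 ± 62.5 and 559 ± 67.4 CPM.

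Collagen XVIII is a proteoglycan of basement membranes and belongs with collagen XV to the multiplexins. Col18a1 (ENSMUSG00000001435) lies on the minus strand at chr10:77052178-77166548. It was at 54.9, 77.2, 65.0 and 66.5 CPM in vehicle libraries 1 to 4 and at 110.4, 132, 109 and 143 CPM in NAM/PN libraries 1 to 4. All NAM/PN libraries were above all vehicle libraries. Col18a1 was 1.88-fold higher with NAM/PN (log2 fold change 0.91 ± 0.20, SE; edgeR with Benjamini-Hochberg adjustment, adjusted p = 0.0214, and 0.0322 with the pool as a block; exact permutation p = 0.0286). Without NAM/PN libraries 1 and 2 the log2 fold change was 0.94 and the call was lost (edgeR with Benjamini-Hochberg adjustment, adjusted p = 0.148). The call was also lost without vehicle library 1 (0.0819) or 4 (0.0864), without NAM/PN library 1 (0.0501) or 2 (0.0803), and without any 1 of the pools (0.0552 to 0.164), all with edgeR and Benjamini-Hochberg adjustment. The ratio of Col18a1 to Col5a2 was 0.149 to 0.233 with vehicle and 0.562 to 0.959 with NAM/PN. Because each chain already separated the conditions, in opposite directions, this gap adds no support.

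The 3′ end of Col18a1 overlaps Slc19a1, the reduced folate carrier, on the opposite strand, and the strand setting of the counting is not given in the sources used here. Counts of both genes near this end may therefore not be told apart. Slc19a1 was at 20.5 to 42.6 CPM with vehicle and at 18.7 to 40.4 CPM with NAM/PN, which overlapped (log2 fold change 0.22, edgeR with Benjamini-Hochberg adjustment, adjusted p = 0.949). Col15a1, the other multiplexin, had no count in any library.

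**Figure D3:**
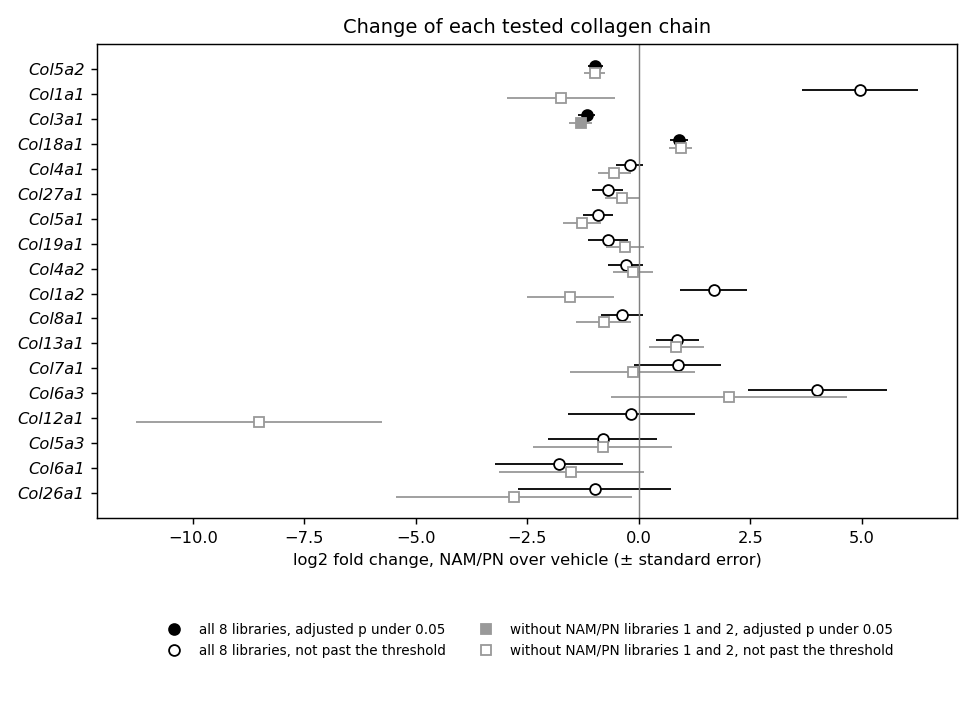
log2 fold change of NAM/PN over vehicle for each of the 18 tested chains, with standard errors, over all 8 libraries (black circles) and without NAM/PN libraries 1 and 2 (gray squares), filled where the adjusted p was under 0.05. Col5a2, Col3a1 and Col18a1 keep their size in both fits, while Col1a1 and Col1a2 change sign. The gray value of Col12a1 compares vehicle with NAM/PN libraries that had no count and has no defined size.

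The upstream sequences of the called chains are shown because Col3a1 and Col18a1 moved in opposite directions. RefSeq promoters (GRCm38.p6) were found for 35 of the 44 chains and for 14 of the 18 tested chains. Col5a2 and Col1a1 had no entry. Each sequence is the 250 bases before an annotated start, 5′ to 3′ in the direction of the gene. Capitals mark matches, on either strand, to 4 motifs. The first is the core promoter's TATA box, searched as TATAAA. The second is the E-box, the site of MYOD-family factors, searched as CANNTG, of which the form CAGCTG was also counted alone. The third is the SMAD element, searched as CAGAC, and the last is the GC box of SP1-family factors, searched as GGGCGG. Col3a1 is read from chr1:45311288-45311537 on the plus strand, and Col18a1 from chr10:77113706-77113955 and chr10:77166531-77166780 on the minus strand.
Col3a1: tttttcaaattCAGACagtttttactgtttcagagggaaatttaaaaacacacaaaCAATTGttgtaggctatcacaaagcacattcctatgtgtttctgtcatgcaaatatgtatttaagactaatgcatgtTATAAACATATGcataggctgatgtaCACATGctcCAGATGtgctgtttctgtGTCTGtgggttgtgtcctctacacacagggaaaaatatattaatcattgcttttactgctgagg
Col18a1, start inside the gene: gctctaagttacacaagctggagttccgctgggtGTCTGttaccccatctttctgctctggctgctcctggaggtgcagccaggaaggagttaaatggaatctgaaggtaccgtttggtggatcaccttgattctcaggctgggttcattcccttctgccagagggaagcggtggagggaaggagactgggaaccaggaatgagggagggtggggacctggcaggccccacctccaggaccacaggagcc
Col18a1, outermost start: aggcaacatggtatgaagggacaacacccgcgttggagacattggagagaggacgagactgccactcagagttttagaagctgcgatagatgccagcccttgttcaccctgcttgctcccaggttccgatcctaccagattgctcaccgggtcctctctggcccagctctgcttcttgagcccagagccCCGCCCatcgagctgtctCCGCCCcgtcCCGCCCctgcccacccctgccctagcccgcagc

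The Col3a1 window held TATAAA at 117 bases before the start, directly followed by an E-box, 4 E-boxes in all and 2 CAGAC matches. The Col18a1 windows held 1 CAGAC match, in the window inside the gene, and 3 GGGCGG matches, all in the outermost window. GC content was 35.2% for Col3a1 and 57.6% and 62% for Col18a1. Among all 32851 promoters of this length, TATAAA was in 12.4%, CANNTG in 66.2%, CAGCTG in 13%, CAGAC in 42.2% and GGGCGG in 32.7%. Of the 38 collagen promoters, 13.2%, 50%, 15.8%, 44.7% and 57.9% held these motifs. A match describes letters, not a bound site.

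Collagen IV networks form the scaffold of basement membranes, and 2 of the 6 chains were tested. Col4a1 was at 31.1, 62.9, 38.5 and 46.8 CPM with vehicle and at 41.6, 53.1, 23.9 and 37.5 CPM with NAM/PN. Col4a2, transcribed from the same promoter region in the other direction, was at 22.3, 20.8, 17.4 and 29.9 CPM with vehicle and at 9.36, 23.4, 20.4 and 20.7 CPM with NAM/PN. Both overlapped between conditions, with log2 fold changes of -0.20 ± 0.30 and -0.29 ± 0.39 (SE; edgeR with Benjamini-Hochberg adjustment, adjusted p = 0.948 and 0.935). Of the other collagen IV chains, Col4a5 had 68 counts over 4 libraries and Col4a3, Col4a4 and Col4a6 had none.

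Of the 6 collagen VI chains 2 were tested, and neither passed. Col6a3, its longest classical chain, was at 1.42, 0.993, 0 and 0 CPM with vehicle and at 8.49, 25.9, 0 and 4.95 CPM with NAM/PN. NAM/PN libraries 1 and 2 were again the highest (log2 fold change 4.00 ± 1.56, SE; edgeR with Benjamini-Hochberg adjustment, adjusted p = 0.354, unadjusted 0.0189). The log2 fold change was 2.87 without NAM/PN library 2, 2.02 without NAM/PN libraries 1 and 2, and 1.61 without vehicle library 3 as well (edgeR with Benjamini-Hochberg adjustment, adjusted p = 0.801, 0.911 and 0.940). Col6a1 was at 2.48 to 8.89 CPM with vehicle and at 0 to 2.43 CPM with NAM/PN, without overlap but short of the threshold (edgeR with Benjamini-Hochberg adjustment, adjusted p = 0.832). Col6a2 had 85 counts in all and was not tested, and Col6a4, Col6a5 and Col6a6 had none.

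Among the fibril-associated collagens with interrupted triple helices, which decorate fibrils, 2 of 9 chains were tested. Col19a1, expressed in developing muscle, was at 22.7, 32.5, 52.7 and 27.0 CPM with vehicle and at 5.29, 23.7, 35.8 and 18.8 CPM with NAM/PN. It was lower in each pool, yet the conditions overlapped, since the pools differed among themselves (log2 fold change -0.69 ± 0.45, SE; edgeR with Benjamini-Hochberg adjustment, adjusted p = 0.747). Col12a1 was at 0.247 to 7.44 CPM with vehicle, and with NAM/PN at 11.3 and 7.66 CPM in libraries 1 and 2 and at 0 in libraries 3 and 4. Col9a3 had 75 counts, Col20a1 16 and Col16a1 14, and Col9a1, Col9a2, Col14a1 and Col22a1 had none.

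The remaining tested chains were Col8a1 of the short-chain network collagens, the transmembrane Col13a1 found at neuromuscular junctions, the anchoring-fibril chain Col7a1, and Col26a1. Col8a1 was at 16.6 to 27.9 CPM with vehicle and at 20.4 to 23.5 CPM in NAM/PN libraries 1 to 3, with 3.55 CPM in NAM/PN library 4. Col13a1 was at 5.44 to 12.1 CPM with vehicle and at 11.4 to 24.0 CPM with NAM/PN, and Col7a1 at 2.72 to 12.1 and 0.152 to 20.6 CPM. Col26a1 was at 0 to 9.14 CPM with vehicle and at 0 to 4.32 CPM with NAM/PN. None of these 4 passed the edgeR test (Benjamini-Hochberg adjusted p = 0.656 to 0.960). Among untested chains, Col11a1 had 23 and 78 counts in NAM/PN libraries 1 and 2 and none elsewhere. Col11a2 had 56 counts in all, Col17a1 31, Col8a2 13, Col23a1 11, Col24a1 6 and Col10a1 4. Col2a1, Col25a1 and Col28a1 had no count, so that with the chains named above 14 chains were not detected at this depth.

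The machinery that makes, binds and removes collagen was read from 6 lists with 72 genes in the table, of which 44 were tested. Lower levels with NAM/PN passed the test for 5 of the 44 genes and higher levels for 0, against 0.995% and 0.282% of all tested genes. The 5 include Ogn, which passed the filter on low counts through the vehicle libraries alone, so 4 called genes remain that reached it in both conditions. The median log2 fold change was -0.19, against -0.0022 over all genes. With the pool as a block 3 of the 5 passed (Bgn, Mmp2 and Mmp14). At an unadjusted p under 0.05 were 12 genes (27.3%), against 9.28% of all genes. DESeq2, which called 289 genes in all where edgeR called 154, called Plod2, Mmp9 and Timp1 in addition, the last of them higher.

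None of the 3 lists for making collagen held a gene past the threshold in edgeR. At an unadjusted p under 0.05 were 1 gene for hydroxylation (7.14% of those tested), 2 for folding and export (25%) and 1 for propeptide removal and crosslinking (14.3%). The share over all tested genes was 9.28%. Hydroxylation and glycosylation had 14 tested genes, led by Plod2, which hydroxylates lysines of the collagen telopeptides for crosslinking. Plod2 was at 71.0, 77.9, 64.7 and 66.4 CPM with vehicle and at 41.4, 31.5, 35.6 and 42.1 CPM with NAM/PN. The conditions did not overlap, but the call was missed (log2 fold change -0.89 ± 0.23, SE; edgeR with Benjamini-Hochberg adjustment, adjusted p = 0.0599). P4ha1, a prolyl hydroxylase subunit, was at 18.9 to 30.4 and 10.4 to 28.8 CPM (adjusted p = 0.955, edgeR with Benjamini-Hochberg adjustment). Of the 8 tested genes for folding and export, Fkbp10, a collagen chaperone, had the smallest p (43.8 to 71.4 CPM with vehicle, 19.6 to 54.9 CPM with NAM/PN; edgeR with Benjamini-Hochberg adjustment, adjusted p = 0.356). Serpinh1, the collagen chaperone HSP47, was at 306 to 372 CPM with vehicle and at 260.3 to 478 CPM with NAM/PN (log2 fold change 0.07 ± 0.18, SE; adjusted p = 0.979 by the same edgeR test with Benjamini-Hochberg adjustment).

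For propeptide removal and crosslinking, 0 of 7 tested genes passed. Pcolce2, an enhancer of the C-proteinase, had the smallest p (39.6 to 52.6 CPM with vehicle, 60.7 to 86.8 CPM with NAM/PN; edgeR with Benjamini-Hochberg adjustment, adjusted p = 0.276), and the crosslinking oxidase Lox was at 9.06 to 21.1 and 2.90 to 12.2 CPM (0.774). Of 7 tested receptors 0 passed in edgeR, and 1 had an unadjusted p under 0.05 (14.3%, against 9.28% of all tested genes). Ddr2, a receptor tyrosine kinase for fibrillar collagen, was at 207, 252, 203 and 182 CPM with vehicle and at 153, 173, 131 and 79.9 CPM with NAM/PN. These did not overlap (log2 fold change -0.65 ± 0.22, SE; edgeR with Benjamini-Hochberg adjustment, adjusted p = 0.210). Calcr, the calcitonin receptor that responds to collagen V, had 12 counts, all in vehicle library 4, and was not tested. Itga7, which marks the sorted cells, was at 249.6 to 362 CPM with vehicle and at 238 to 303 CPM with NAM/PN.

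Among proteoglycans and fibril regulators, 3 of 12 genes were tested (Bgn, Ogn and Sparc). Biglycan (Bgn), a small leucine-rich proteoglycan on collagen fibrils, was at 66.0, 71.0, 57.9 and 73.1 CPM with vehicle and at 15.6, 14.4, 3.65 and 12.1 CPM with NAM/PN. No NAM/PN library came near the vehicle libraries (log2 fold change -2.54 ± 0.36, SE; edgeR with Benjamini-Hochberg adjustment, adjusted p = 6.19e-04, and 3.68e-04 with the pool as a block). Osteoglycin (Ogn), of the same proteoglycan family, was at 10.9, 3.97, 4.45 and 5.66 CPM with vehicle and had no count in any NAM/PN library. It entered the test only through its vehicle counts, so its call is a description and not support. Against a floor of 3 counts per library it was at least 16.4-fold lower (edgeR with Benjamini-Hochberg adjustment, adjusted p = 0.0422, and 0.161 with the pool as a block). The Ogn call was lost in all 12 fits that left out 1 library or pool, with adjusted p-values of 0.0631 to 0.294 by edgeR with Benjamini-Hochberg adjustment, and without NAM/PN libraries 1 and 2 together (0.15). Sparc, a collagen-binding matricellular protein, was at 828 to 1027 CPM with vehicle and at 942 to 1028 CPM with NAM/PN.

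Genes for collagen breakdown and its inhibitors had 5 tested members of 12, and 3 were lower past the test, against 0.995% of all tested genes. Mmp14, a membrane-bound collagenase that also activates Mmp2, was at 52.5, 65.1, 65.6 and 78.8 CPM with vehicle and at 23.3, 23.1, 24.5 and 11.9 CPM with NAM/PN. The conditions were well apart (log2 fold change -1.67 ± 0.29, SE; edgeR with Benjamini-Hochberg adjustment, adjusted p = 0.00359, and 0.00845 with the pool as a block). The gelatinase Mmp2 was at 40.1, 18.5, 14.6 and 23.1 CPM with vehicle and at 2.34, 1.25, 6.24 and 2.90 CPM with NAM/PN, again without overlap (log2 fold change -2.92 ± 0.58, SE; edgeR with Benjamini-Hochberg adjustment, adjusted p = 0.0106). The Mmp2 call was lost by limma's voom with Benjamini-Hochberg adjustment (adjusted p = 0.0757) and, in edgeR with the same adjustment, without NAM/PN libraries 1 and 2 (log2 fold change -2.41, adjusted p = 0.131), where Mmp14 was still called (0.0325) and, with vehicle library 3 out too, was not (0.0714). Mmp9, the other gelatinase, was at 15.9, 13.4, 11.2 and 3.59 CPM with vehicle and at 2.46, 0, 0 and 0 CPM with NAM/PN, and did not pass (edgeR with Benjamini-Hochberg adjustment, adjusted p = 0.230). Leaving out 1 library or pool ended the Mmp14 call only without pool 2, and the Mmp2 call without vehicle library 1 or 4 and without pool 1, 2 or 4 (edgeR with Benjamini-Hochberg adjustment, adjusted p = 0.0596 for Mmp14 and up to 0.256 for Mmp2).

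Of the inhibitors of these proteases, Timp1 and Timp2 were tested, and Timp3 and Timp4 did not pass the filter. Timp3 had counts in few libraries, at 20.8 and 6.69 CPM in NAM/PN libraries 1 and 2, 0 in NAM/PN libraries 3 and 4 and at most 2.39 CPM with vehicle. Timp2 was at 564, 637, 839.7 and 665 CPM with vehicle and at 417, 419, 396 and 435 CPM with NAM/PN, without overlap. It was lower (log2 fold change -0.70 ± 0.16, SE; edgeR with Benjamini-Hochberg adjustment, adjusted p = 0.0264), and missed the threshold with the pool as a block (0.0590). The Timp2 call held only without vehicle library 1, vehicle library 3 or NAM/PN library 4 among the 12 fits that left out 1 library or pool, with an edgeR adjusted p (Benjamini-Hochberg) of up to 0.227. Without NAM/PN libraries 1 and 2 it was 0.247 by the same test, at the same log2 fold change of -0.70. Timp1 was at 119, 140.2, 124 and 117 CPM with vehicle and at 176, 199, 196 and 185 CPM with NAM/PN. All NAM/PN libraries were above all vehicle libraries, though the call was missed (log2 fold change 0.60 ± 0.17, SE; edgeR with Benjamini-Hochberg adjustment, adjusted p = 0.103). Markers of other states were read beside these genes. Myog, the myogenic differentiation factor, was at 566 to 1428 CPM with vehicle and at 108 to 277 CPM with NAM/PN, and the summed mural markers were at 285 to 611 and 95.9 to 156 CPM. Of the 9 mural markers 3 were tested. Acta2, which muscle progenitors in culture also express, was lower and made up most of the sum with vehicle, the levels of Cspg4 and Notch3 overlapped between conditions, and Myh11 and Higd1b had no count. The part of these shifts in the collagen results was not tested.

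**Figure D4:**
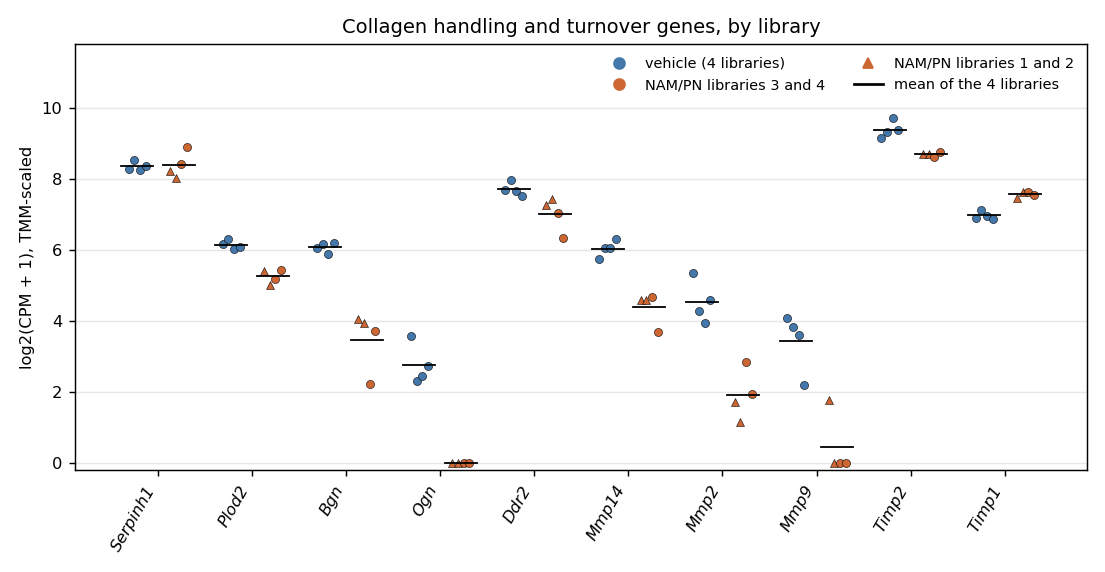
Levels of 10 genes for collagen handling, binding and breakdown in the 8 libraries, as log2(CPM + 1) after TMM scaling. Blue points are vehicle libraries, orange points NAM/PN libraries (triangles for NAM/PN libraries 1 and 2), and bars the mean of 4 libraries. Bgn, Ogn, Mmp14, Mmp2 and Timp2 are lower with NAM/PN, and Serpinh1 overlaps between conditions.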

How the data were processed

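RNA of cultured MuSCs was sequenced in 8 libraries made with a QuantSeq 3′ kit. The table deposited by the authors holds raw, unnormalized read counts for each gene. According to the supplement and the submitters' processing notes, reads were demultiplexed with Bcl2FastQ and casava, aligned to GRCm38 with RNASTAR and counted with htseq (HTSeq 2.16.2). The annotation release, strand setting and use of UMIs are not given in the sources used here.

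The treatment label gave the groups. The pool number was read as the same 2 mice in both conditions, which would pair them. Same-numbered libraries did not deviate together (correlations of deviations from the condition means of -0.011, 0.014, -0.033 and 0.031). The p-values measure the spread over pools. Symbols, gene types and positions came from GENCODE M21 (GRCm38), which held 55227 of 55487 identifiers.

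Counts were filtered (filterByExpr, minimum count 10, minimum total 15), scaled by TMM and tested in R 4.3.3 with edgeR 4.0.16 (quasi-likelihood test by glmQLFTest). P-values were adjusted by Benjamini-Hochberg over the 12060 genes tested, at a threshold of 0.05. Log2 CPM used a prior count of 2. The pool as a block, DESeq2 1.42.0, limma 3.58.1 (voom), other scalings, filters and thresholds, thinning, and leaving out libraries or pools were alternatives. The scripts were tested on simulated data. The members and lists were chosen with earlier results of these data known. Named were chains past the threshold, with unadjusted p under 0.05 or among the 10 highest, pathway genes past the threshold or with the smallest p of their list, and Serpinh1, P4ha1, Plod2, Lox, Itga7, Calcr and Ddr2. Timp1, Mmp9, Sparc, Myog, Slc19a1 and chains outside this rule were described after their values were seen. Library totals of 6472484 to 10163101 counts set the precision, and the floor of 3 counts covers counting error only. Of the list symbols, 1 (Ctage5) was not matched. Markers of tendon (2 of 6 tested), endothelial (1 of 7), blood (1 of 6) and Schwann cells (2 of 5) were also read, and none of those tested passed. The tendon marker Scx was at 236 to 331 CPM with vehicle and at 202 to 273 CPM with NAM/PN. Mkx was at 3.09 to 9.35 and 0 to 0.975 CPM, and reached the filter's level in no NAM/PN library. The other 4 tendon markers had no count.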

Additional observations from a re-analysis of the deposited data

Results flagged for a closer look

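In 63 groups of 4 libraries, over the tested chains and the named pathway genes, 6 held a library far from the other 3, where chance alone gives about 1 in 20 (3.15). Col1a1 was at 41.3 CPM in vehicle library 3, against 1.74 to 4.26 CPM in the other vehicle libraries. Col5a1 was at 25.0 CPM in vehicle library 4, against 40.4 to 41.6 CPM. Col7a1 was at 12.1 CPM in vehicle library 4, against 2.72 to 2.96 CPM. Col12a1 was at 0.247 CPM in vehicle library 3, against 6.51 to 7.44 CPM. Col8a1 was at 3.55 CPM in NAM/PN library 4, against 20.4 to 23.5 CPM. Mmp14 was at 11.9 CPM in the same library, against 23.1 to 24.5 CPM.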

How the results depend on the processing

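With the pool as a replicate block, 3 turnover genes passed instead of 5, and the same 3 collagen chains passed. Col3a1 passed in all 21 alternatives (log2 fold change -1.30 to -1.06), Col5a2 in 17 and Col18a1 in 11. Bgn passed in all 21 as well. By DESeq2, 289 genes and 8 turnover genes passed (154 and 5 by edgeR). Without a filter on low counts, 5 chains passed (Col1a1 and Col1a2 in addition), 3 of them higher, 20 were fitted lower, and 366 genes and 9 turnover genes passed. By voom 232 genes and 6 turnover genes passed, with Plod2 and Timp1 gained and Mmp2 lost. At an adjusted p of 0.10, 244 genes passed and 2 chains that were higher. Leaving out single libraries or pools gave 1 to 4 chains (lower 1 to 2, higher 0 to 2), 10 to 13 chains fitted lower, a median log2 fold change of -0.55 to -0.17, 42 to 177 genes and 1 to 4 turnover genes. The fewest genes, 42, came without pool 2, where Col3a1 and Bgn still passed. Among these fits the log2 fold change of Col4a1 ran from -0.38 to 0.0058, turning its sign without vehicle library 2.

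After the data were seen, NAM/PN libraries 1 and 2 were left out: 1 chain passed (1 lower, 0 higher), with 76 genes and 3 turnover genes (Bgn, Mmp14 and Mmp9, the last not among the 5 of all libraries and with no count in the 2 NAM/PN libraries left, so tested through its vehicle counts alone), and Col1a1 and Col1a2 turned to -1.75 and -1.53. With vehicle library 3 out too, 1 chain passed (1 lower, 0 higher), with 51 genes and 1 turnover gene (Bgn), and Col1a2 was at -1.61. Fewer libraries enter these fits. Otherwise the cause was not tested. Chains under about 10 counts per library were too shallow to compare.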
